A study of Rattus norvegicus with 6 samples.

Results

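The genes described here are 33 genes of the interferon response and of the loading of peptides onto major histocompatibility complex (MHC) class I molecules. They were taken by symbol from a table of 33350 gene models, with the row of the highest mean where a symbol had more than 1 row. A row was found for 31 of them, and Oas1b and Xaf1 had none. The 6 libraries held RNA of rat cells that the labels call PC12, a line from an adrenal pheochromocytoma that can take on neuronal features. In the 3 EN libraries the cells had been given exosomes from endothelial cells with high expression of netrin-1 (NTN1), a secreted axon guidance protein. Exosomes are membrane vesicles that cells release and that can pass RNA and protein to other cells. In the 3 EC libraries the exosomes came from control endothelial cells. All cells had thus been given endothelial exosomes, and no library of cells without exosomes was analysed here. The sources used here give no dose, time of exposure or species of the endothelial cells. The labels do not state separate cultures for the replicates. The p-values therefore measure the spread among these 6 samples only, and that spread may be technical.

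Interferons are secreted proteins by which cells warn each other of virus. RIG-I-like receptors in the cytosol sense viral RNA and, through the factor IRF3, switch on interferon genes. Interferon bound to its receptor activates JAK kinases, which phosphorylate STAT transcription factors. After type I interferon a complex that holds STAT2 and IRF9 binds interferon-stimulated response elements (ISRE) in promoters, while GAS elements serve the response to interferon-gamma. Among the genes switched on are antiviral effectors and the machinery that cuts proteins into peptides, pumps them into the endoplasmic reticulum through the TAP transporter and loads them onto class I heavy chains paired with beta-2-microglobulin. The comparison of EN with EC asks whether the recipient cells' transcripts of this system differed when the vesicles came from cells with high netrin-1.

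Levels are given as FPKM, reads scaled by gene length and by the reads of the library, a unit that allows genes to be compared per length. The libraries held 15296193 to 19626012 reads worked back from the FPKM values, with all EN libraries deeper than all EC libraries. Mitochondrial transcripts took 4.40 to 5.50% of reads in EN and 5.43 to 6.09% in EC. Defining genes of the labelled cell type were at low levels. Of 9 chromaffin markers only Th reached 1 FPKM, at 1.66 ± 0.050 FPKM in EN and 1.29 ± 0.233 FPKM in EC, and Pnmt and Hand2 had no read. Of 9 Schwann and glial markers 8 were tested, of which 5 were lower and 1, Ngfr, was higher in EN. That is 75% called, beside 14.4% of all tested genes (7.24% higher and 7.14% lower in EN). The summed level of the 9 Schwann and glial markers was 413 to 446 FPKM in EN and 467 to 477 FPKM in EC, led by Ngfr, Sox10 and S100b. That of the 9 chromaffin markers was 2.05 to 2.35 FPKM in EN and 1.52 to 1.78 FPKM in EC. Of 10 leukocyte markers, Ptprc had 2 reads in all and Aif1 none. The summed level, mostly Cd14, was 35.6 to 36.7 FPKM in EN and 37.3 to 40.4 FPKM in EC. Cd68, the other tested gene of that list, was at 4.22 ± 0.455 FPKM in EN and 4.17 ± 0.591 FPKM in EC. The 7 endothelial markers found, led by Tie1 and Tek, summed to 3.20 to 3.66 FPKM in EN and 3.19 to 4.07 FPKM in EC. The part of these differences in the results was not tested.

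ISRE and GAS elements lie in promoters, and the promoters of genes on which the results turn are shown here. They are the 180 bases before the annotated start of the gene, from RefSeq on the GRCr8 build, in lower case on the strand of the gene, 5′ to 3′. Capitals mark matches on either strand to the ISRE core GAAANNGAAA or to the GAS palindrome TTCNNNGAA. Tap1 (chr20:4668544-4668723, minus strand) was higher in EN, B2m (chr3:129549150-129549329, plus strand) and Stat2 (chr7:1286910-1287089, plus strand) were lower, Tapbp (chr20:4967878-4968057, minus strand) did not pass the test, and Oas1a (chr12:41330286-41330465, plus strand), which holds overlapping ISRE cores, was under the level needed for a test.
Tap1: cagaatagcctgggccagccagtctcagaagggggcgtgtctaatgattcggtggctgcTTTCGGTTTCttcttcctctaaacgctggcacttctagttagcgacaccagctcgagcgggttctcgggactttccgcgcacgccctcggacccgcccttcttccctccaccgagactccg
B2m: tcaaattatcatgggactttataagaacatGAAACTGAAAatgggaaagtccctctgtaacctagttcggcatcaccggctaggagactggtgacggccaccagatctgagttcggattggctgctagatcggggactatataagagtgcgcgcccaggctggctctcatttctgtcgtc
Tapbp: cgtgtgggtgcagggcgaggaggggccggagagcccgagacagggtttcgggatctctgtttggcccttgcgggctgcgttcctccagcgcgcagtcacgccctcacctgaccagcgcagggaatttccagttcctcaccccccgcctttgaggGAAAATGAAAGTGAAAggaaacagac
Oas1a: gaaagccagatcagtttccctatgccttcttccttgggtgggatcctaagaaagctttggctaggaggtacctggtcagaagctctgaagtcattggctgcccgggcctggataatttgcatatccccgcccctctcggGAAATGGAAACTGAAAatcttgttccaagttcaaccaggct
Stat2: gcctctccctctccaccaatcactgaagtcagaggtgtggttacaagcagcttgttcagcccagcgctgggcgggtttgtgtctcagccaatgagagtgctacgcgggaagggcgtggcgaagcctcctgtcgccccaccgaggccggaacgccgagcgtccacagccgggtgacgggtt

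A window of 250 bases before to 50 bases after the start was found for 25 of the 33 genes. It held an ISRE core in 18 of them, which is 72.0%, against 3.92% of all 33469 windows in the RefSeq table. A GAS palindrome stood in 5 of the 25, which is 20%, against 8.87% of all windows. In 1 window, that of Bst2, an ISRE core overlapped a GAS palindrome. In Tap1 the core began 121 bases before the start and read on the other strand. In B2m it began 150 bases before the start, and in Tapbp overlapping cores began 26 and 20 bases before it. The 10 letters GAAACTGAAA, picked out after the sequences were seen, stood on either strand in 9 of the 25 windows (Ifit3, Isg20, Oas1a, Oas1b, Oasl2, Bst2, Ifi44, Dtx3l and B2m), against 0.308% of all windows. No window was found for Ddx58, Dhx58, Ifit1, Ifit2, Isg15, Mx2, Oas2 or Usp18. A match is a description of letters and not evidence that a factor was bound.

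Of the 31 genes, 22 had a mean of at least 1 FPKM over the 6 libraries and were tested, and 9 were below. B2m and Ifi27 were the 2 genes above 50 FPKM, 14 lay between 5 and 50 FPKM, and 6 between 1 and 5. Among the 9 genes below 1 FPKM were Mx1, Mx2, Oas1a, Oas2, Ifit1, Ifit3 and Rsad2, which are classical readouts of a type I interferon response. Other interferon-stimulated genes of the set were above 1 FPKM. Their means were 134 (Ifi27), 14.0 (Ifit2), 7.19 (Usp18), 6.25 (Oasl2), 3.59 (Ifi44) and 1.06 FPKM (Isg15). The transcription factors Irf1, Irf3, Irf9 and Stat2 were all above 5 FPKM.

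**Figure D1:**
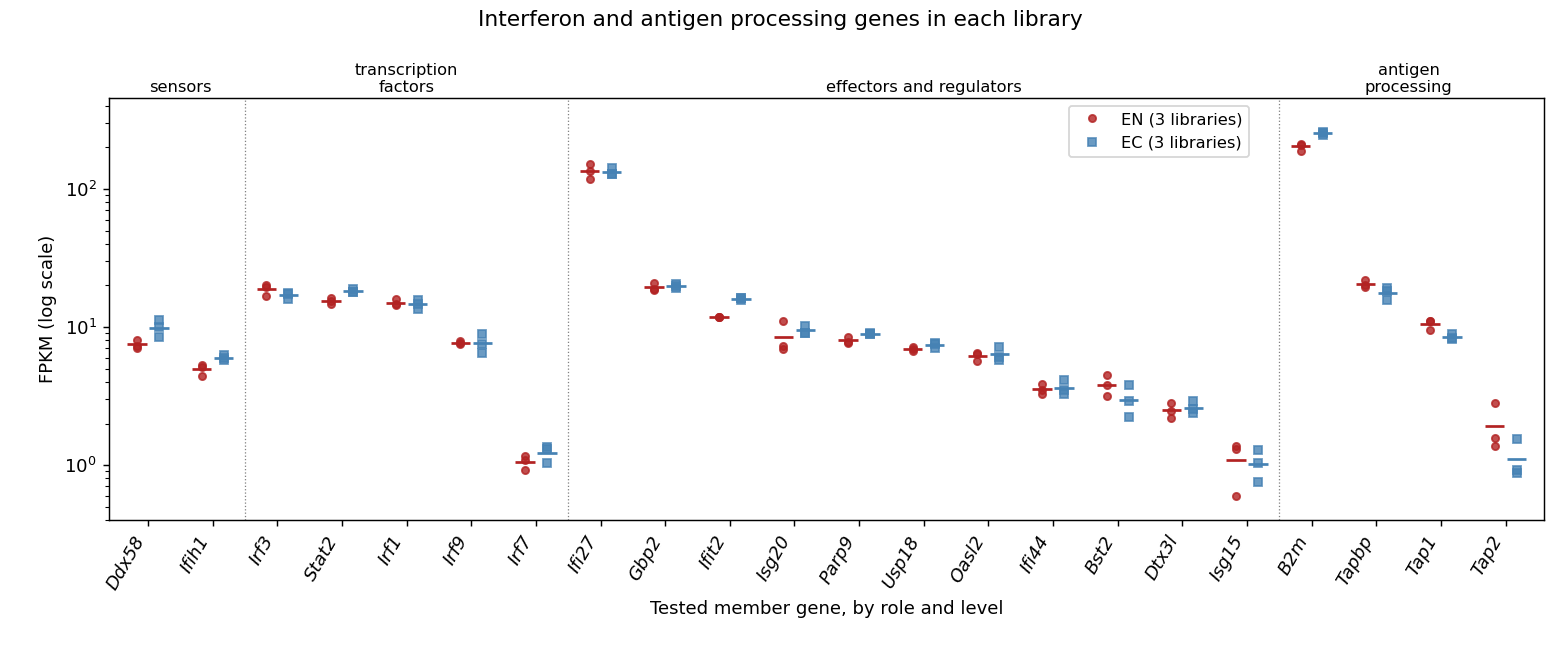
FPKM of the 22 tested genes (log scale) in each of the 3 EN and 3 EC libraries, grouped by role, with a short line at the group mean. B2m and Ifi27 stand above 100 FPKM in every library, and Irf7 and Isg15 lie close to 1 FPKM.

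Between the groups, 4 of the 22 tested genes passed in limma at a Benjamini-Hochberg adjusted p under 0.05. Ifit2, B2m and Stat2 were lower in EN while Tap1 was higher. That is 18.2% of the tested genes, beside 14.4% of all 12198 genes tested (7.24% higher and 7.14% lower in EN), so the share lay close to that of all genes. The median log2 change, EN minus EC, was -0.03 over the 22 genes and -0.0028 over all tested genes, with 9 of the 22 above 0 and 13 below. The groups did not overlap in 8 of the 22, of which 2 were higher and 6 lower in EN, beside 37.9% of all tested genes (18.6% higher and 19.4% lower). Log2 changes are on the scale log2(FPKM + 1), which understates the change of low genes, and folds are ratios of mean FPKM. In these bulk libraries, fewer cells that express a gene and less RNA of it per cell cannot be told apart.

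**Figure D2:**
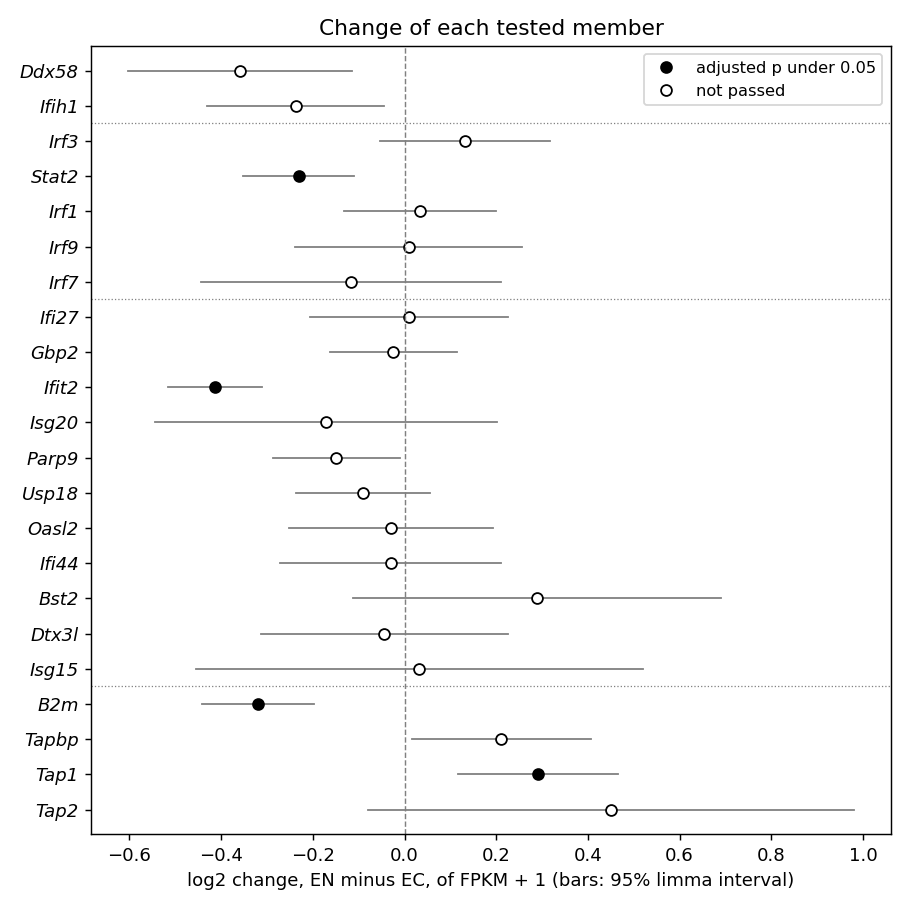
Log2 change of FPKM + 1, EN minus EC, for each tested gene in the order of the level plot, with its 95% interval from limma. Filled points passed at an adjusted p under 0.05, and they are Stat2, Ifit2 and B2m on the left of 0 and Tap1 on the right.

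The RNA sensors lay below the control in both tested genes, without passing the test. Ddx58, which encodes RIG-I, the receptor for viral RNA with a 5′ triphosphate (chromosome 5, 56500734 to 56536772), had 7.04, 7.28 and 8.11 FPKM in EN replicates 1 to 3, against 9.94, 11.3 and 8.51 FPKM in EC replicates 1 to 3. Every EN library was below every EC library, although EN replicate 3 and EC replicate 3 were close. The log2 change was -0.36 (SE 0.103, 95% interval -0.60 to -0.115, limma adjusted p = 0.061). It passed in 2 of 16 alternatives, a minimum mean of 5 FPKM (adjusted p = 0.044) and limma voom on whole reads (0.036), and in none of the 6 fits with 1 library left out, where the adjusted p was 0.0575 to 0.163.

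Ifih1, which encodes MDA5, the sensor of long double-stranded RNA, had 5.31, 4.41 and 5.14 FPKM in EN and 5.99, 5.79 and 6.23 FPKM in EC, again without overlap. Its log2 change was -0.24 (SE 0.082, limma adjusted p = 0.095). It passed in 1 of 16 alternatives, voom (0.049), and the adjusted p reached 0.245 with EN replicate 2 left out. Dhx58, which encodes LGP2, a regulator of the other 2 sensors, was at 0.648 ± 0.099 FPKM in EN and 0.586 ± 0.072 FPKM in EC (SD, n = 3 each), and the groups overlapped.

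Of the 5 transcription factors, Stat2 was lower and the other 4 did not pass. Stat2, the STAT protein specific to type I and type III interferon signalling (chromosome 7, 2691369 to 2707741), had 15.5, 14.8 and 16.1 FPKM in EN and 19.0, 18.1 and 17.8 FPKM in EC. The highest EN library was below the lowest EC library. The log2 change was -0.23 (SE 0.051, limma adjusted p = 0.031), a 1.18-fold lower mean in EN (15.4 ± 0.669 FPKM in EN and 18.3 ± 0.618 FPKM in EC). With 1 library left out the call was lost for EN replicates 1 and 2 (adjusted p of 0.087 and 0.110) and for EC replicates 1, 2 and 3 (0.065, 0.096 and 0.080), as it was without an expression filter (0.054) and without the variance trend (0.0504).

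Irf9, the DNA-binding partner of STAT2, had 7.62, 7.51 and 7.86 FPKM in EN and 8.97, 7.54 and 6.49 FPKM in EC, so the EN libraries lay within the wider range of EC. Irf1, a factor induced by interferon-gamma whose promoter window held a GAS palindrome, had 15.9, 14.6 and 14.4 FPKM in EN and 13.4, 14.7 and 15.8 FPKM in EC. The 95% intervals of their log2 changes were -0.24 to 0.26 for Irf9 and -0.132 to 0.20 for Irf1. Irf3, which is present before infection and is activated by phosphorylation, had 19.4, 20.1 and 16.7 FPKM in EN and 17.5, 15.9 and 17.6 FPKM in EC, with an interval of -0.053 to 0.32. Irf7, the factor that amplifies interferon production, was low in both groups, at 1.16, 1.09 and 0.918 FPKM in EN and 1.32, 1.34 and 1.04 FPKM in EC. All 4 genes overlapped between the groups. Gene models on the other strand overlap Irf3 (Bcl2l12) and Irf7 (Phrf1), and strand handling in the counting was not described in any source used.

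Among the 11 tested effectors and regulators, Ifit2 was lower and 10 did not pass. Ifit2, whose protein binds AU-rich viral RNA (chromosome 1, 252894663 to 252900726), had 11.85, 11.80 and 11.85 FPKM in EN and 15.8, 16.2 and 16.3 FPKM in EC. The 3 EN libraries were nearly equal and all lay well below the EC libraries. The log2 change was -0.41 (SE 0.044, limma adjusted p = 0.0047), a mean of 11.8 ± 0.029 FPKM in EN and 16.1 ± 0.293 FPKM in EC (SD, n = 3 each) that was 1.36-fold lower in EN, and it passed in all 16 alternative fits, with adjusted p between 6.73e-04 and 0.032. The spread of the EN libraries, 0.246% of their mean, was below the 3.71% that counting 669 to 801 reads would give by itself, so the 3 values lay closer together than counting alone would place them.

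The neighbours of Ifit2 on chromosome 1 were nearly silent. Ifit3, 5507 bases downstream on the same strand, was at 0.721 ± 0.135 FPKM in EN and 0.515 ± 0.091 FPKM in EC (SD, n = 3 each). Ifit1, further along, had 10 reads over all 6 libraries, 7 in EN and 3 in EC. Ifit1 and Ifit3 are usually induced together with Ifit2, and here their levels overlapped between the groups.

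Ifi27, an interferon-alpha-inducible gene, was the highest of the effectors. It had 152, 135 and 117 FPKM in EN and 141, 129 and 129 FPKM in EC, so the EN libraries spanned the whole EC range (log2 change 0.010, 95% interval -0.21 to 0.23). Gbp2, a guanylate-binding GTPase of interferon-gamma responses, had 18.7, 18.5 and 20.9 FPKM in EN and 19.7, 20.4 and 19.2 FPKM in EC, with an interval of -0.163 to 0.113 on the log2 scale. Isg20, a 3′ exonuclease of RNA, was at 11.1, 6.96 and 7.33 FPKM in EN and 10.3, 9.10 and 9.10 FPKM in EC. EN replicate 1 was above every EC library and the other 2 EN libraries were below them.

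Genes that restrain or modify the response did not pass either. Usp18, the protease that removes ISG15 from proteins and damps receptor signalling, had 6.69, 7.20 and 6.90 FPKM in EN and 7.67, 7.08 and 7.59 FPKM in EC (95% interval of the log2 change -0.24 to 0.056). Isg15, the ubiquitin-like protein itself, lay at 1.30, 1.38 and 0.597 FPKM in EN and 1.28, 0.756 and 1.04 FPKM in EC, with 142 reads in all. Its interval, -0.46 to 0.52 on the log2 scale, was the widest of the effectors. Parp9 and Dtx3l encode a paired ADP-ribosyltransferase and ubiquitin ligase and stand head to head on chromosome 11 with 1128 bases between them. Parp9 was at 8.50, 7.84 and 7.68 FPKM in EN and 9.10, 8.93 and 8.90 FPKM in EC, without overlap but with an adjusted p of 0.133 in limma. Dtx3l overlapped between the groups, at 2.47, 2.19 and 2.84 FPKM in EN and 2.53, 2.38 and 2.90 FPKM in EC.

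Bst2, or tetherin, which holds budding virus at the cell surface, had 3.82, 4.50 and 3.17 FPKM in EN and 3.80, 2.93 and 2.22 FPKM in EC, and the groups overlapped. Oasl2, a relative of the oligoadenylate synthetases, had 5.66, 6.45 and 6.39 FPKM in EN and 6.05, 7.20 and 5.75 FPKM in EC. Ifi44 had 3.27, 3.51 and 3.85 FPKM in EN and 4.13, 3.29 and 3.51 FPKM in EC, again with overlap. For these 3 genes the adjusted p in limma was 0.284, 0.857 and 0.864.

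The effectors under 1 FPKM had between 9 reads (Oas2) and 136 reads (Oas1a) over all 6 libraries. Oasl, an oligoadenylate synthetase-like gene 12703 bases from Oasl2, had 17, 20 and 14 reads in EN, against 5, 1 and 6 in EC. At 0.353, 0.365 and 0.308 FPKM in EN and 0.118, 0.024 and 0.135 FPKM in EC, it was 3.70-fold higher in mean FPKM in EN, with no overlap. It was under the expression minimum and so not tested in the main fit. In the fit without a filter its log2 change was 0.30 (limma adjusted p = 0.044). Rsad2, which encodes the antiviral enzyme viperin, had 20, 30 and 23 reads in EN and 11, 14 and 16 in EC, and did not pass in that fit (adjusted p = 0.198). In FPKM its EN libraries were also above all EC libraries, at 0.312 to 0.411 against 0.195 to 0.271.

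The other low genes overlapped between the groups. Mx1 and Mx2, dynamin-like GTPases that block virus nucleocapsids, had 7 and 26 reads in EN and 17 and 23 reads in EC. Oas1a and Oas2, synthetases of the messenger that activates RNase L, had 66 and 2 reads in EN and 70 and 7 in EC. Relatives within the Ifit, Mx and Oas families have similar sequences, and no source used describes how the counting divided reads between them.

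**Figure D3:**
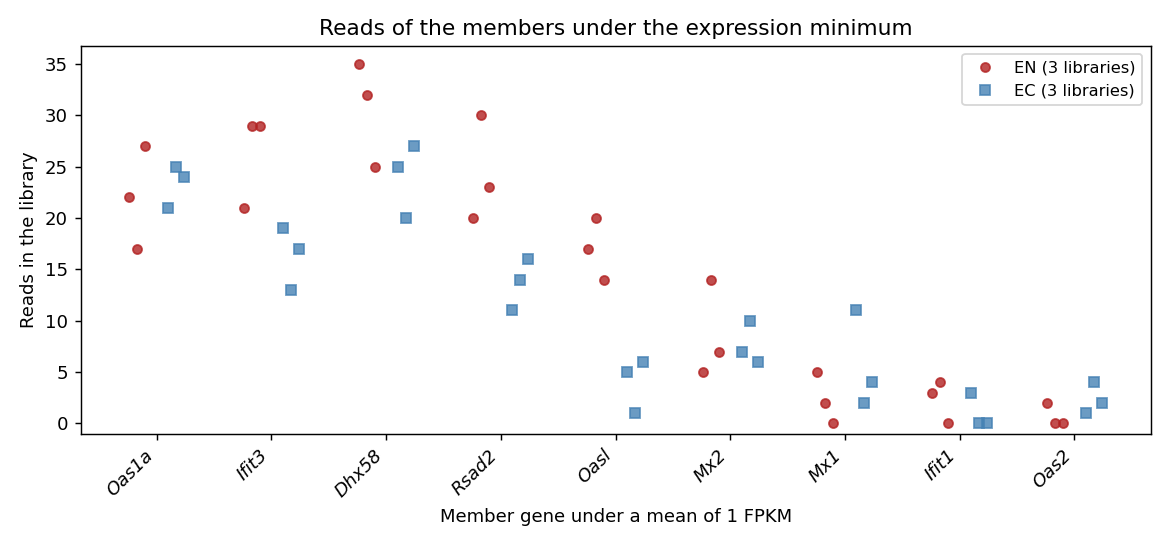
Reads in each library for the 9 genes under a mean of 1 FPKM, ordered by mean level. Oasl has 14 to 20 reads in the EN libraries and 1 to 6 in the EC libraries, and Mx1, Ifit1 and Oas2 have at most 11 in any library.

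In the 4 genes of antigen processing the changes ran in opposite directions. B2m, which encodes the invariant light chain of class I molecules (chromosome 3, 114087287 to 114093309), was the most abundant gene of all 31. It had 211, 209.5 and 189 FPKM in EN and 246, 260.4 and 254 FPKM in EC. All EN libraries were below all EC libraries, EN replicate 3 furthest. The log2 change was -0.32 (SE 0.052, limma adjusted p = 0.014), a 1.25-fold lower mean in EN (203 ± 12.4 FPKM in EN and 253 ± 7.44 FPKM in EC). The adjusted p was 0.064 without EC replicate 2 and 0.060 without EC replicate 3, and B2m passed in the other 14 alternatives.

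Tap1, a subunit of the peptide transporter (chromosome 20, 3979035 to 3989669), had 11.0, 11.1 and 9.51 FPKM in EN and 8.26, 8.85 and 8.14 FPKM in EC. The lowest EN library was above the highest EC library. The log2 change was 0.29 (SE 0.074, limma adjusted p = 0.044), a 1.25-fold higher mean in EN (10.5 ± 0.895 FPKM in EN and 8.42 ± 0.378 FPKM in EC). The call was held by a narrow margin. Leaving out a library lost it for each EC library (adjusted p of 0.085, 0.092 and 0.130 for replicates 1 to 3) and for EN replicates 1 and 2 (0.129 and 0.141), and it was also lost without a filter (0.091) and without the variance trend (0.059).

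Tapbp, or tapasin, which bridges the transporter and the empty class I molecule, had 22.1, 20.2 and 19.5 FPKM in EN and 19.2, 18.2 and 15.7 FPKM in EC. The groups did not overlap, but EN replicate 3 and EC replicate 1 differed little, and the log2 change of 0.21 (SE 0.083) did not pass (limma adjusted p = 0.130). Tap2, the other transporter subunit, has 2 gene models in the table. The higher model (chromosome 20, 5198258 to 5212624, minus strand) had 2.83, 1.37 and 1.58 FPKM in EN and 0.873, 0.915 and 1.56 FPKM in EC and did not pass (log2 change 0.45, SE 0.22, adjusted p = 0.214). The other model (3995544 to 4009587, plus strand), on the same strand as Tap1 and near it, was at 0.306, 0.476 and 0.498 FPKM in EN and 0.428, 0.491 and 0.563 FPKM in EC. Reads of Tap2 may be divided between these models, so its level is uncertain. With the model near Tap1 in its place, which is under the expression minimum, 4 of 21 tested genes passed.

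Genes that act in class I presentation beside these were read from a list of 25, of which 24 were in the table and 17 were tested. In limma 14 did not pass, 2 were higher and 1 was lower, which is 17.6% called beside 14.4% of all genes, with a median log2 change of 0.139. RT1-S3, a class I heavy chain gene of the rat MHC, had 12.3, 12.3 and 10.7 FPKM in EN and 8.41, 8.06 and 7.66 FPKM in EC. Its log2 change of 0.50 (SE 0.071, adjusted p = 0.0099) was the largest of the list, and it passed in all 16 alternatives. RT1 genes resemble each other closely, and RT1-S3 shares its position with a model of the opposite strand, so its reads are uncertain. RT1-A2, a heavy chain of the same complex, was at 11.8, 8.35 and 7.23 FPKM in EN and 6.52, 8.00 and 5.61 FPKM in EC, with overlapping groups. The other tested RT1 genes went both ways, and none passed. Their log2 changes were 0.35 (RT1-T24-4), 0.151 (RT1-A1), 0.139 (RT1-N3), -0.081 (RT1-M3-1), -0.196 (RT1-CE7) and -0.30 (RT1-CE5).

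Calr and Canx, which encode chaperones that fold class I chains, moved apart. Calr, or calreticulin, was at 463, 469 and 464 FPKM in EN and 402.5, 427 and 412 FPKM in EC (log2 change 0.169, limma adjusted p = 0.026). Canx, or calnexin, was at 194, 206 and 220.3 FPKM in EN and 236, 253 and 255 FPKM in EC (log2 change -0.26, adjusted p = 0.027). Neither pair of groups overlapped, and both calls were lost in the fits that left out EC replicate 2 or 3 or EN replicate 1 or 2, Calr also without EC replicate 1, with adjusted p of at most 0.104 for Calr and 0.098 for Canx. Both were also lost without a filter and without the variance trend. Pdia3, of the same list, was at 408.5 ± 3.02 FPKM in EN and 424 ± 8.28 FPKM in EC, without overlap. It did not pass (log2 change -0.054, limma adjusted p = 0.293).

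The immunoproteasome genes, whose products replace subunits of the standard proteasome, had positive changes that did not pass. Psmb8 and Psmb9 flank Tap1 on chromosome 20, Psmb9 head to head with it at 189 bases. Psmb8 was at 14.0 ± 0.585 FPKM in EN and 11.4 ± 1.45 FPKM in EC, without overlap (SD, n = 3 each; adjusted p = 0.076). Psmb9 was at 10.3 ± 1.69 FPKM in EN and 8.90 ± 0.989 FPKM in EC, and Psmb10 at 33.7 ± 1.44 FPKM in EN and 28.6 ± 3.64 FPKM in EC, both with overlap. Erap1, the aminopeptidase that trims peptides, was at 20.3 ± 1.14 FPKM in EN and 23.9 ± 1.61 FPKM in EC, without overlap (log2 change -0.22, adjusted p = 0.063).

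**Figure D4:**
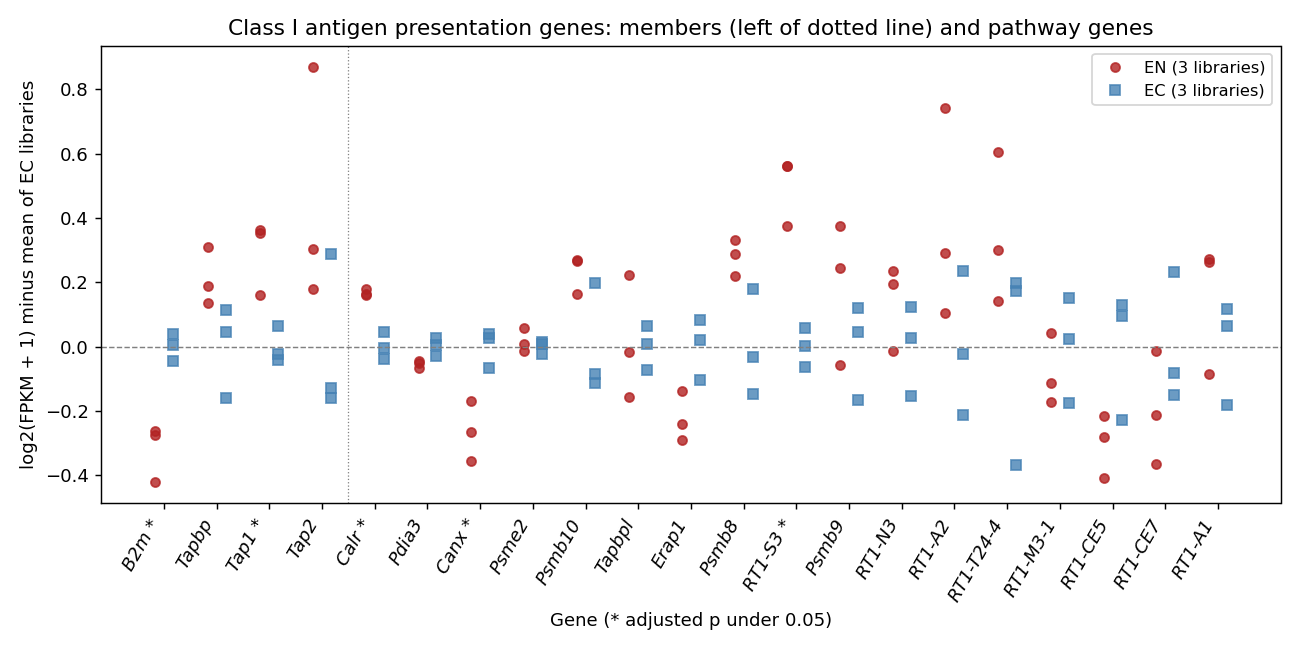
Log2(FPKM + 1) of each library minus the mean of the EC libraries, for the 4 genes of antigen processing and 17 tested genes of class I presentation, each list in order of level. B2m and Canx lie below 0 in all 3 EN libraries, and Tap1, Calr and RT1-S3 above it.

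The receptors and their kinases were present in both groups. Of 15 tested genes of receptors and JAK-STAT signalling, 12 did not pass, 2 were higher and 1 was lower, which is 20% called beside 14.4% of all tested genes. Both genes that were higher encode inhibitors of JAK kinases that STAT factors induce. Socs3 had 39.2, 33.6 and 30.9 FPKM in EN and 22.3, 18.8 and 17.7 FPKM in EC, a 1.76-fold higher mean in EN (log2 change 0.79, SE 0.109, limma adjusted p = 0.0092). Socs1 had 20.4, 18.4 and 18.4 FPKM in EN and 12.6, 14.6 and 14.6 FPKM in EC, 1.37-fold higher (log2 change 0.42, SE 0.073, adjusted p = 0.017). In both genes the lowest EN library was above the highest EC library. Socs3 passed in all 16 alternatives, and Socs1 was lost without EC replicate 2 (adjusted p = 0.0505), EN replicate 1 (0.056) or EN replicate 2 (0.056).

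Jak1, the kinase shared by type I and type II interferon receptors, had 66.2, 67.2 and 69.6 FPKM in EN and 78.8, 81.7 and 78.9 FPKM in EC (log2 change -0.24, SE 0.037, limma adjusted p = 0.013). The EN libraries were all below the EC libraries. The call was lost without EC replicate 2 (adjusted p = 0.064), EN replicate 1 (0.0501) or EN replicate 2 (0.062). Gene models on the other strand overlap Jak1. The receptor genes Ifnar1 and Ifngr1 were at 15.2 ± 0.939 and 22.9 ± 0.562 FPKM in EN and 17.5 ± 0.586 and 25.6 ± 0.647 FPKM in EC, without overlap, and did not pass (adjusted p of 0.063 and 0.055).

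Interferon transcripts themselves were scarce. Of 11 genes of interferons and related cytokines, 9 were in the table. No read was counted for Ifna4, Ifnk, Ifnl3 or Tnf in any library, which allows at most 0.052 FPKM for Ifna4 and 0.018 FPKM for Tnf over all 6 (3 reads, counting error only). Ifnb1 had 1 read and Ifng had 4. Ifne, an interferon of epithelia, was the only tested gene of this list, with 8, 6 and 7 reads in EN and 11, 12 and 14 in EC (0.691 ± 0.144 FPKM in EN and 1.39 ± 0.136 FPKM in EC, limma adjusted p = 0.062).

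In the list of sensing adaptors 1 of 14 tested genes was higher and 13 did not pass, which is 7.14% called beside 14.4% of all tested genes, of which 7.24% were higher. It was Myd88, the adaptor of Toll-like and interleukin-1 receptors, at 12.8, 11.7 and 11.8 FPKM in EN and 10.5, 10.2 and 10.2 FPKM in EC (log2 change 0.21, limma adjusted p = 0.046). This call was lost with each library left out in turn, with adjusted p between 0.054 and 0.140, with the replicate number as a block (0.054), without a filter (0.079) and without the variance trend (0.056).

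The list of other interferon-stimulated genes had 27 tested, with 1 higher, 3 lower and 23 that did not pass. That is 14.8% called, close to the 14.4% of all tested genes, with a median log2 change of -0.041. Parp12, an ADP-ribosyltransferase, was lower at 24.0, 22.3 and 24.0 FPKM in EN and 29.9, 28.6 and 27.9 FPKM in EC (limma adjusted p = 0.017; 0.067 without EC replicate 2 and 0.065 without EN replicate 2). Ifitm1, a membrane protein that hinders virus entry, and Samd9l, an antiproliferative factor, were lower by log2 changes of -0.39 and -0.32 (adjusted p of 0.036 and 0.047). Parp10, of the same family as Parp12, was higher at 7.45, 6.29 and 5.66 FPKM in EN and 4.70, 4.73 and 4.67 FPKM in EC (log2 change 0.38, adjusted p = 0.044). The calls of Ifitm1, Samd9l and Parp10 were each lost in 5 of the 6 fits with 1 library left out, with adjusted p of at most 0.106, 0.144 and 0.121, and all 3 also without a filter and without the variance trend. Ifitm1 (0.059) and Parp10 (0.054) were lost with the replicate block, Ifitm1 (0.0555) with voom and Samd9l (0.052) with median centring. Cxcl10, a chemokine that interferon-gamma induces strongly, was at 20.7 ± 1.54 FPKM in EN and 18.4 ± 1.36 FPKM in EC and did not pass, and Cxcl9 had no read. A gene model on the other strand, Art3, overlaps Cxcl10, so its level is uncertain.

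Over the 6 lists together, 11 of 74 tested genes passed, 6 higher and 5 lower in EN, which is 14.9% beside 14.4% of all tested genes. Read against the promoters, 12 of the tested genes of the main set held an ISRE core, of which Tap1 was higher, B2m was lower and 10 did not pass. Tap2 is not counted there, because its RefSeq window, which holds a core, lies beside Tap1 as does the gene model of Tap2 that was not tested. Of 5 tested genes with a window and no core, Stat2 was lower and 4 did not pass. Ifit2, which was lower in EN, and Ddx58, Isg15 and Usp18, which did not pass, had no window and are in neither count. Both counts are small, and of all tested genes 7.24% were higher and 7.14% lower in EN. Genes with a core ranged from a mean of 0.303 FPKM (Rsad2) to 228 FPKM (B2m).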

How the data were processed

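Per the labels' protocols, Trizol was used to take RNA and a TruSeq kit to build libraries. The authors deposited 1 table of FPKM for 33350 gene models with coordinates. The submitters' processing notes name HISAT2 2.0.5 and the Rnor_6.0 build. Counting tool, annotation release, strand setting and filters: not given in the sources used here. FPKM multiplied by gene length came in whole steps in each library (100% of non-zero values, within 0.001 of a whole number, scaled up for values over 1000 reads), so whole reads were worked back. Limits computed from reads reflect counting error alone.

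Groups were compared with limma 3.58.1 (R 4.3.3) on log2(FPKM + 1) (two-sided, variance trend, no covariate) over the 12198 genes averaging 1 FPKM or more, and a Benjamini-Hochberg adjusted p under 0.05. Of 33 symbols 31 matched. The genes, lists and tests were chosen with earlier results of these data known. Every member is accounted for. Of each pathway list all genes past the test were named where 6 or fewer, and of marker lists the leading ones, while other genes were named after their values were seen. Promoters are from RefSeq (GRCr8), and gene coordinates from the table (Rnor_6.0). Alternatives were pseudocounts of 0.1 and 0.5, no filter or a minimum mean of 5 FPKM, TPM scale, median centring, quantile normalization, no variance trend, the replicate number as a block, leaving out each library in turn, and voom on whole reads. The second Tap2 row was added after the data were seen. The fit was also run on simulated reads, with known changes only in genes of at least 5 FPKM and libraries that differed in depth alone. That run does not bear on low genes or on calls lost with 1 library left out.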

Additional observations from a re-analysis of the deposited data

How the results depend on the processing

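With 1 library left out, 1 to 4 of the 22 genes passed the test, 0 to 1 higher and 1 to 3 lower in EN. The count was 2 when EN replicate 1 or 2 or EC replicate 1 was left out, and 1, Ifit2, when EC replicate 2 or 3 was. Without the variance trend 2 passed, 0 of them higher. Limma voom on whole reads called 5 lower, adding Ddx58 and Ifih1. Without a filter 3 of 31 passed, and they were Ifit2, B2m and Oasl. In the pathway lists 2 to 13 of 74 genes passed with 1 library left out, 6 without the variance trend and 17 with voom. There 5 of 107 passed without a filter and 16 of 61 with a minimum mean of 5 FPKM. Of all 12198 tested genes 1754 passed in the main fit, and 338 to 2059 with 1 library left out. Of the same 12198 genes 1019 passed without the variance trend and 2369 with voom. Without a filter 866 of all 20495 genes passed, and with a minimum mean of 5 FPKM 2022 of 9204. The cause of these changes was not tested. No alternative turned the direction of a called gene. The median log2 change of all genes stayed within -0.0065 and 0.012 under every scaling.

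The replicate number as a block left 4 members past the test, 9 genes of the pathway lists and 1907 of all genes. The deviations of same-numbered libraries from their group means correlated at 0.088, -0.095 and -0.020 over the tested genes. Those of libraries with different numbers correlated at -0.111 to 0.134, and not every library correlated best with its own number. Deviations from a mean of only 3 libraries depend on each other, so these values cannot show whether the numbers pair the samples. At these depths the 9 genes under 1 FPKM rest on at most 164 reads each over all libraries.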

Other observations

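The MHC class II genes, which interferon-gamma induces through Ciita in many cell types, were all under 1 FPKM on average. Their summed level was 2.12, 5.28 and 1.76 FPKM in EN and 1.20, 1.21 and 1.23 FPKM in EC. Most of the excess in EN replicate 2 came from RT1-DMa, a chain of the class II peptide exchanger, with 12, 115 and 17 reads in EN and 7, 8 and 7 in EC, chosen after its values were seen. RT1-Db1, a class II beta chain, had 34, 65 and 23 reads in EN and 11, 16 and 20 in EC. Cd74, the class II invariant chain, had 26 reads over all 6 libraries, and Ciita had 125. No gene of this list was tested.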
